A study of Mus musculus with 2 samples.

Results

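The CCN genes encode a small family of secreted proteins that sit in the extracellular matrix and act on cells as signals. The 5 members Ccn1, Ccn2, Ccn3, Ccn4 and Ccn5 were taken by symbol from the gene lists of both deposited count matrices, which hold 32589 genes in all, and no measured value entered that choice. The study compared mouse hearts after transverse aortic constriction (TAC), a surgical narrowing of the aorta that puts a pressure load on the left ventricle. Tissue came from the hypertrophied left ventricle at 6 weeks after surgery, from wild-type mice and from p53 knockout mice. RNA was counted by barcode, each taken here as 1 cell, and whether cells or nuclei were loaded is not given in the labels. For each genotype the tissue of 3 hearts was mixed and made into 1 library. Both groups had the operation. The strain, age and sex of the mice, the deleted part of Trp53 and whether the deletion was confined to a cell type are not given in the sources used here. Mixing the hearts leaves no measure of the spread between animals, so no difference below was tested. The labels give the cell type as cardiomyocytes, whereas the counts held many classes. Cells named cardiomyocyte-like from markers such as Myh6 and Tnnt2 made up 32.1% of the kept cells under the wild-type label, against 9.27% under the p53 knockout label.

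CCN proteins are called matricellular because they bind to matrix and to cell surfaces without building fibres. They are made of modules that resemble an insulin-like growth factor binding protein, a von Willebrand factor type C repeat, a thrombospondin repeat and a C-terminal cystine knot, the last of which CCN5 lacks. They act through integrins, heparan sulfate proteoglycans and LDL receptor-related proteins, and they modulate TGF-β, BMP, VEGF and Wnt signalling. Ccn1 (formerly Cyr61) and Ccn2 (formerly Ctgf) are widely used as readouts of the YAP and TEAD transcription factors, Ccn2 is also induced by TGF-β and is a common marker of cardiac fibrosis, and Ccn4 (formerly Wisp1) was named as a Wnt-induced gene. CCN5 (formerly Wisp2) has been described as opposing CCN2 in the mouse heart.

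Each member has 5 exons in its longest coding transcript. On mm10, with the GENCODE vM21 annotation, Ccn1 lies on chromosome 3 at 145646976 to 145649981 (minus strand), Ccn2 on chromosome 10 at 24595442 to 24598683, Ccn3 on chromosome 15 at 54745702 to 54754039, Ccn4 on chromosome 15 at 66891320 to 66923201 and Ccn5 on chromosome 2 at 163820861 to 163833146, the last 4 on the plus strand. The coding lengths are 1137, 1044, 1062, 1101 and 753 bases in the order Ccn1 to Ccn5, so Ccn5 is the shortest. The RefSeq promoter table used here held 1 of the 5 members, Ccn1. Its upstream sequence is shown because Ccn1 is a standard YAP and TEAD target and because its level differed between the libraries in some cell classes and barely in others. The sequence below is the 250 bases before the RefSeq transcription start on GRCm38.p6, chr3:145649986-145650235, read along the minus strand from 5′ to 3′. Capitals mark, from left to right, a TEAD motif, a cyclic AMP response element core and a TATA motif.
Ccn1: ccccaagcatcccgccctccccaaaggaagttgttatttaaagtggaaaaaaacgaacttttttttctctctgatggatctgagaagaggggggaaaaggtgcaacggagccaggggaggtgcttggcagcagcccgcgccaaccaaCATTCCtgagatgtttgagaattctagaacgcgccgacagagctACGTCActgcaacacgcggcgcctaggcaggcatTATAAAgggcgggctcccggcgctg
Motifs were searched on both strands. The TEAD motif GGAATG matched once, on the opposite strand, at 103 to 98 bases before the start, and 12.6% of 32851 RefSeq promoters of the table hold it. The response element core ACGTCA matched at 59 to 54 bases before the start, and 6.47% of promoters hold it. The motif TATAAA matched at 25 to 20 bases before the start, and 12.4% hold it. The AP-1 motif TGANTCA, the SMAD motif CAGAC, the CArG box bound by SRF and the p53 decamer had 0 matches in these bases, against 6.75%, 42.2%, 1.47% and 7.13% of all promoters. A match is a run of letters and not a measured binding site.

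Counts are unique molecular identifiers (UMIs), each the tag of 1 captured RNA molecule. The library labelled wild-type had 18897913 of them in 16060 barcodes, and 14764 cells with a median of 937 UMIs were kept. The library labelled p53 knockout had 20918824 in 10118 barcodes, of which 9298 cells with a median of 1567 UMIs were kept. In the 2 libraries 105 barcodes recurred, which touched 196 kept cells, and all 39 ratios of members stayed within their counting intervals without them. Trp53, the gene named in the label, stood at 38.7 CPM (its UMIs scaled to a fixed total, as explained below) under the wild-type label and 55.0 CPM under the p53 knockout label, a ratio of 1.42 (1.29 to 1.57), and in cardiomyocyte-like cells at 27.7 and 27.2 CPM. Where the deletion lies relative to the counted end of the transcript is not given, so this level does not check the label, and the libraries are named by their labels throughout. Xist was at 3.27 CPM in cardiomyocyte-like cells labelled wild-type and at 615 CPM in those labelled p53 knockout, while Uty on the Y chromosome was at 243 and 5.35 CPM, so genotype and the sex of the mixed hearts cannot be told apart.

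Levels are counts per 1000000 (CPM) of nuclear-encoded UMIs, summed over the cells of a class, with exact 95% Poisson intervals. Where a pair of values is given, the library labelled wild-type comes first. Ratios divide the second level by the first, with exact conditional binomial intervals and 0.5 UMI added to each sum for the point value. All of these intervals cover counting error only. Orders of classes are given over the 10 classes with at least 50 cells in both libraries. A summed level cannot tell fewer expressing cells from less RNA per cell.

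Ccn2 made up most of the family's UMIs and was far higher under the p53 knockout label. It had 2071 UMIs, or 126 CPM (121 to 132), over all kept cells labelled wild-type and 23106 UMIs, or 1248 CPM, over those labelled p53 knockout, a ratio of 9.89 (9.46 to 10.4). Ccn1 stood at 69.5 and 328 CPM, a ratio of 4.72 (4.43 to 5.03). Ccn5 stood at 13.7 and 94.9 CPM, a ratio of 6.92 (6.03 to 8.0). These 3 genes were all higher in the library labelled p53 knockout by several fold. Ccn4 was scarce in both libraries, with 21 UMIs and 245 UMIs, or 1.28 and 13.2 CPM, a ratio of 10.1 (6.62 to 17.0). Ccn3 differed least, at 8.65 and 13 CPM, a ratio of 1.5 (1.22 to 1.87). Among 13120 genes with at least 100 UMIs in at least 1 library, ordered from the highest ratio down, Ccn4 was number 86, Ccn2 number 90, Ccn5 number 142, Ccn1 number 246 and Ccn3 number 2595. Ccn4 reached 100 UMIs only under the p53 knockout label, where it is high, so its place lends no support to its difference. Thus 4 of 5 members were at least 2-fold higher, where 12% of 18696 genes with at least 20 UMIs were. With the class mix of the library labelled wild-type imposed on both, an alternative added after seeing the data, the log2 ratio moved from 2.24 to 1.95 for Ccn1, from 3.31 to 3.08 for Ccn2 and from 0.59 to 0.20 for Ccn3. The values for Ccn4 and Ccn5, 3.33 and 2.67, stayed within their counting intervals.

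Ccn2, the fibrosis-linked member, was highest in endocardial-like and fibroblast-like cells of the library labelled p53 knockout. In fibroblast-like cells it was at 204 CPM (189 to 220) under the wild-type label, and under the p53 knockout label at 2409 CPM (2362 to 2457), a ratio of 11.8 (10.9 to 12.8). In endocardial-like cells, the lining of the heart chambers, it was at 292 CPM (267 to 319) and 2444 CPM (2394 to 2494), a ratio of 8.35 (7.64 to 9.16). Smooth muscle-like cells came next, at 290 CPM (194 to 416) from 29 UMIs and 1244 CPM (1124 to 1373), a ratio of 4.23 (2.94 to 6.50). In these 3 classes the intervals of the libraries lay far apart. Cardiomyocyte-like cells held 71.8 CPM (65.3 to 78.9) and 523 CPM (493 to 553), a ratio of 7.27 (6.51 to 8.14). Pericyte-like cells, the cells wrapped around capillaries, held 242 CPM (208 to 279) and 573 CPM (496 to 659), a ratio of 2.37 (1.93 to 2.92), whose log2 of 1.25 became 0.24 once free RNA was subtracted as described below. The log2 ratio in smooth muscle-like cells, 2.08, was 1.44 without doublet removal. Pericyte-like cells labelled wild-type were thus among the 4 highest classes of their library, whose intervals overlap from endocardial-like through smooth muscle-like and pericyte-like to fibroblast-like cells. Under the other label, endocardial-like and fibroblast-like cells overlap each other and stand above smooth muscle-like cells, and pericyte-like and cardiomyocyte-like cells overlap each other below those.

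**Figure D1:**
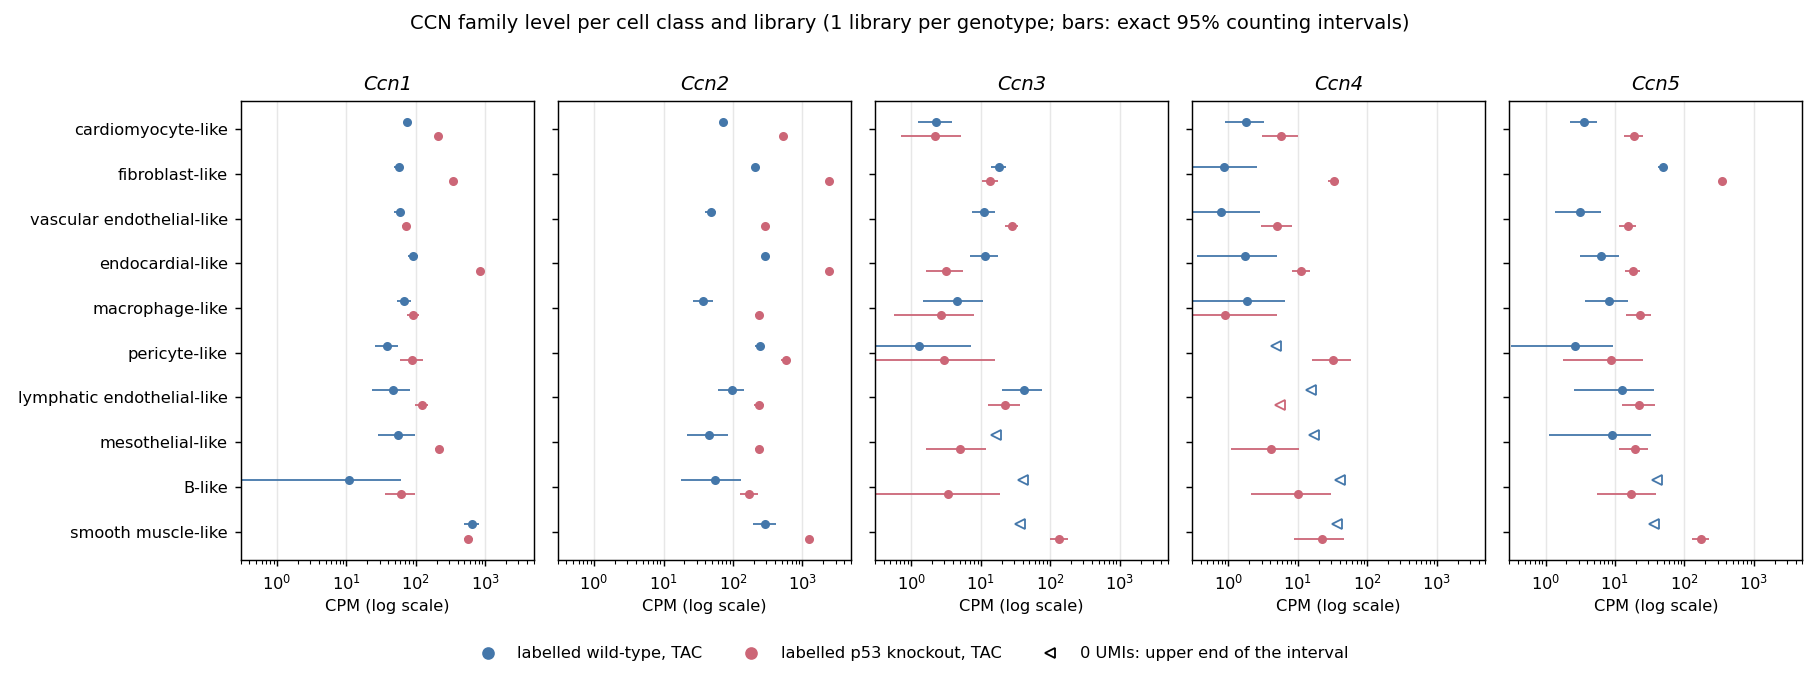
Level of each CCN gene in CPM (log axis) per cell class and library, 1 library per genotype. Points are CPM of summed UMIs, bars exact 95% counting intervals (those reaching the left edge go on below it), and open triangles the upper end of the interval where a library had 0 UMIs. Ccn2 reaches 2409 CPM in fibroblast-like and 2444 CPM in endocardial-like cells labelled p53 knockout. Ccn3 is higher under the wild-type label in endocardial-like cells and under the p53 knockout label in vascular endothelial-like cells, with intervals that do not overlap.

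In the other classes compared, Ccn2 under the p53 knockout label was at or below an estimate of the RNA that floats free in the suspension. B-like and T or NK-like cells, which are not known as sources of Ccn2, served as the background. B-like cells held 55.4 CPM (18.0 to 129) and 172 CPM (128 to 226), and T or NK-like cells 48.5 CPM from 2 UMIs and 182 CPM (126 to 255). The share of free RNA was estimated from cardiomyocyte marker UMIs in classes that should lack them, at 28.9 to 49.1% of UMIs under the wild-type label and 19.2 to 28.2% under the p53 knockout label. Such free RNA with the mean make-up of its library would give 283 CPM of Ccn2 in vascular endothelial-like cells labelled p53 knockout, where 285 CPM (267 to 304) was measured. Macrophage-like cells labelled p53 knockout held 233 CPM (205 to 263) against 329 CPM from that estimate, lymphatic endothelial-like cells 236 CPM (200 to 275) against 244 CPM, and mesothelial-like cells 237 CPM (208 to 270) against 239 CPM. In B-like cells the estimate was 352 CPM, far above the 172 CPM measured, so it overshoots there. The ratios were 5.94 in vascular endothelial-like, 6.14 in macrophage-like, 2.39 in lymphatic endothelial-like, 4.96 in mesothelial-like and 2.85 in B-like cells. The macrophage-like, lymphatic endothelial-like and mesothelial-like levels under the p53 knockout label overlap those of B-like or T or NK-like cells. As class levels they cannot be told from background. Vascular endothelial-like cells lie above both B-like and T or NK-like cells and at the estimate, so their class level cannot be told from free RNA by it. Counts per cell in these classes are given below. Under the wild-type label, lymphatic endothelial-like cells held 96.6 CPM (61.2 to 145), above their estimate of 37.3 CPM. The same estimate gives 242 CPM in fibroblast-like, 252 CPM in endocardial-like, 295 CPM in smooth muscle-like and 313 CPM in pericyte-like cells labelled p53 knockout, all below the levels measured there. After subtraction the log2 ratio of Ccn2 was 2.90 in endocardial-like cells and turned to −1.18 in vascular endothelial-like cells. The cardiomyocyte markers themselves moved with the libraries, since their summed level in fibroblast-like cells was 8170 CPM and 1756 CPM with none of the 10 markers at 0. No such estimate can be had for cardiomyocyte-like cells, whose 71.8 CPM under the wild-type label lies within the interval of B-like cells and whose 523 CPM under the p53 knockout label lies above theirs.

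Counted per cell, Ccn2 was found in more cells of the library labelled p53 knockout at equal depth. With every cell thinned to 500 UMIs, 7.27% (6.39 to 8.23) of fibroblast-like cells labelled wild-type and 43.9% (41.7 to 46.1) of those labelled p53 knockout held a Ccn2 UMI. Endocardial-like cells gave 8.18% (6.89 to 9.63) and 45.3% (42.8 to 47.7). Under the p53 knockout label these shares lay well above those of B-like cells, 8.37%, and of T or NK-like cells, 7.30%. Under the wild-type label B-like cells gave 1.11%, but that share rests on 90 cells and its interval is wide. Without thinning the shares were 12% and 66.2% in fibroblast-like, 13.4% and 68.4% in endocardial-like and 5.56% and 16.3% in B-like cells, at median depths of 991 and 1742, 981 and 1967, and 879 and 1115 UMIs. Cardiomyocyte-like cells gave 2.74% and 19.1% after thinning, and 6.26% and 44.1% before it. Thinned vascular endothelial-like cells gave 2.20% and 9.94%, with an interval for the second library of 8.66 to 11.4% that overlaps that of B-like cells, 5.19 to 12.6%.

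Ccn2 RNA was also unevenly spread among cells. At least 10 Ccn2 UMIs were found in 14.9% of fibroblast-like and 17.2% of endocardial-like cells labelled p53 knockout, and in 0.0948% and 0.248% of those labelled wild-type. The highest cells held 120 and 116 UMIs, and the tenth of cells with the most held 55.9% and 55.4% of the class's Ccn2 UMIs. In B-like cells labelled p53 knockout no cell held more than 3. Under that label 5 or more were found in 1.22% of vascular endothelial-like, 2.19% of lymphatic endothelial-like, 3.86% of mesothelial-like and 0.402% of macrophage-like cells. The highest cells of these classes held 90, 8, 11 and 8. These counts were not thinned, and the classes had median depths of 1450, 1866, 1686 and 1216 UMIs against 1115 in B-like cells. Fibroblast-like cells were 21.4% and 21.6% of kept cells in the 2 libraries and held 33.9% and 43.4% of all Ccn2 UMIs, while endocardial-like cells were 10.9% and 17.2% of kept cells and held 24.4% and 40.3%.

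**Figure D2:**
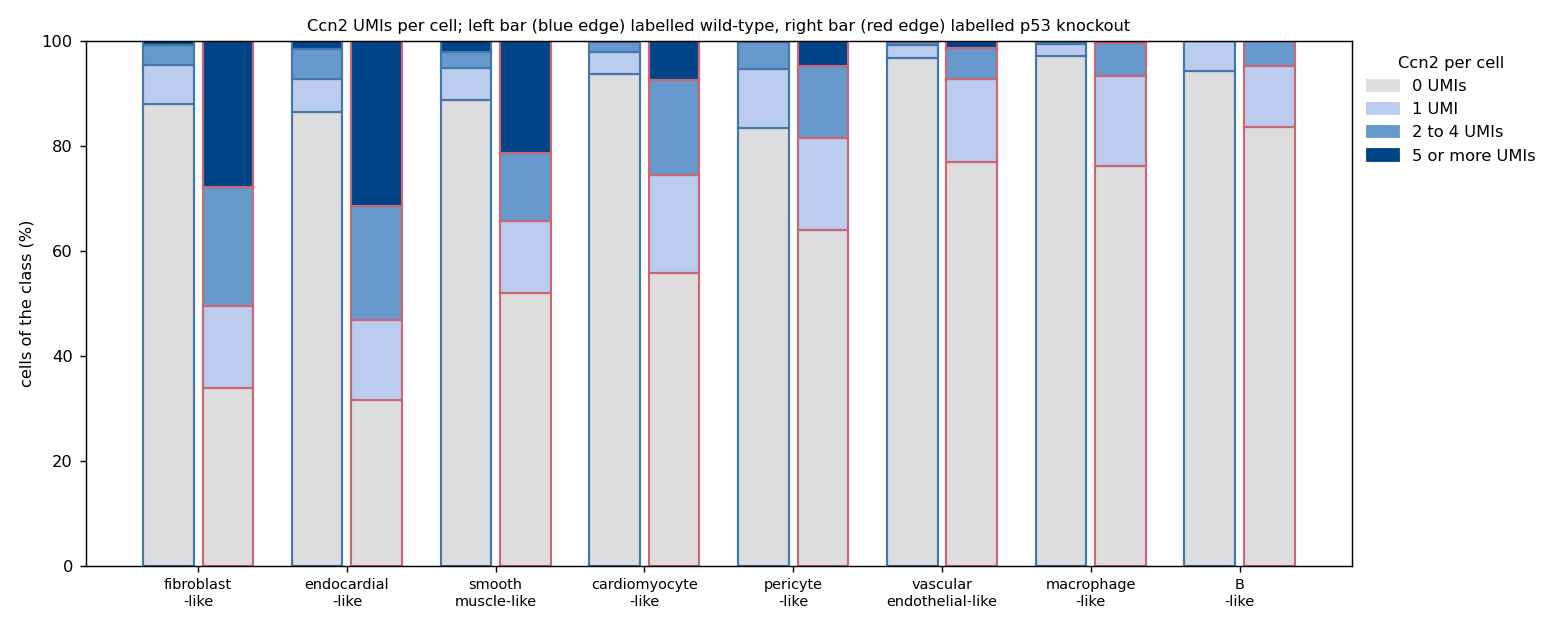
Share of cells (%) with 0, 1, 2 to 4 and 5 or more Ccn2 UMIs, not thinned, per class and library; the left bar of each pair is the library labelled wild-type and the right bar the library labelled p53 knockout. Cells with 5 or more UMIs make up 27.7% of fibroblast-like and 31.3% of endocardial-like cells labelled p53 knockout and 0% of B-like cells.

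Ccn1, an immediate early gene whose protein binds integrins on endothelial cells and fibroblasts, had a different order of classes. Smooth muscle-like cells held the most in the library labelled wild-type, 639 CPM (492 to 816), and held 571 CPM (491 to 661) under the other label, a ratio of 0.889 (0.669 to 1.21). Ccn1 in smooth muscle-like cells thus gave overlapping levels in the 2 libraries. Endocardial-like cells held 90.3 CPM (76.7 to 106) and 828 CPM (799 to 857), a ratio of 9.14 (7.80 to 10.8). Fibroblast-like cells held 56.6 CPM (48.9 to 65.1) and 347 CPM (330 to 366), a ratio of 6.12 (5.28 to 7.17). Cardiomyocyte-like cells held 74.1 CPM (67.5 to 81.3) and 212 CPM (193 to 232), a ratio of 2.85 (2.50 to 3.25). In these 3 classes Ccn1 was clearly higher under the label p53 knockout. Mesothelial-like cells, the epicardial surface layer, held 54.8 CPM (28.3 to 95.7) and 217 CPM (189 to 248), a ratio of 3.81 (2.22 to 7.79) and well above the 63.0 CPM that free RNA would give.

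In vascular endothelial-like cells Ccn1 stood at 58.1 CPM (49.1 to 68.4) and 73.0 CPM (64.1 to 82.8), in macrophage-like cells at 67.7 CPM (53.1 to 85) and 90.6 CPM (73.7 to 110), and in pericyte-like cells at 38.1 CPM (25.5 to 54.7) and 87.7 CPM (59.2 to 125). Under the label p53 knockout those levels are close to the estimates of 74.5, 86.7 and 82.4 CPM from free RNA, and to 60.6 CPM (35.9 to 95.8) in B-like cells. They cannot be told from background by these values. In B-like cells of that label the estimate for Ccn1 was 92.5 CPM, above the level measured but within its interval. With free RNA subtracted the log2 ratio in pericyte-like cells turned from 1.2 to −1.76. Under the label wild-type, vascular endothelial-like and macrophage-like cells stood above their estimates of 24.6 and 21.3 CPM. Lymphatic endothelial-like cells held 46.2 CPM from 11 UMIs and 122 CPM (96.5 to 151), a ratio of 2.53 (1.39 to 5.48). Thinned to 500 UMIs, 2.98% and 18.9% of endocardial-like, 2.62% and 10.4% of fibroblast-like and 0% and 3.35% of B-like cells held a Ccn1 UMI, against 6.08% and 37.1%, 4.08% and 22.9%, and 1.11% and 6.69% unthinned. The upper end of the interval for the 0 of 90 B-like cells labelled wild-type is 4.02%, so the wild-type shares in the other classes cannot be told from background by this measure. Endocardial-like cells went from 13.7% to 51.9% of all Ccn1 UMIs and cardiomyocyte-like cells from 39.7% to 7.81%, while the share of cardiomyocyte-like cells went from 32.1% to 9.27%.

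Ccn5, the member without the C-terminal module, was a gene of fibroblast-like cells in both libraries. These held 48.7 CPM (41.6 to 56.7) under the wild-type label, against 344 CPM (326 to 362) under the p53 knockout label, a ratio of 7.03 (6.01 to 8.32), and their share of all Ccn5 UMIs was 74.7% and 81.4%. None of the other 9 classes compared overlapped them in either library. Smooth muscle-like cells held 0 UMIs in 99 cells labelled wild-type and 54 UMIs, or 170 CPM (128 to 222), in 146 cells labelled p53 knockout. That is 5.69-fold the level of a floor of 3 UMIs in the first (the lower end of the exact interval of the ratio is 4.47). In the same cells the 10 fibroblast markers summed to 1788 CPM with 1 at 0 and to 6657 CPM with none at 0. The 9 smooth muscle markers summed to 7352 CPM and 6528 CPM there. The part of the fibroblast markers in the Ccn5 and Ccn2 levels of smooth muscle-like cells was not tested. The other classes compared lay, under the p53 knockout label, between 8.77 and 22.6 CPM, where B-like cells held 16.8 CPM (5.47 to 39.3), and are read as background. Those classes include cardiomyocyte-like cells at 3.60 and 18.7 CPM and endocardial-like cells at 6.37 and 18.1 CPM. After thinning, 1.87% and 11.1% of fibroblast-like cells held a Ccn5 UMI (3.76% and 25.6% unthinned), against 0% and 0.837% of B-like cells (0% and 2.09%).

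Ccn4, named for its induction by Wnt1, was almost absent from the library labelled wild-type. Fibroblast-like cells held 3 UMIs, or 0.870 CPM (0.179 to 2.54), in that library and 137 UMIs, or 32.9 CPM (27.6 to 38.9), in the other, a ratio of 32.5 (12.7 to 186). Among alternatives, the log2 ratio of 5.02 ranged from 3.92 with cells of at least 500 genes to 6.02 with at most 10% mitochondrial UMIs. Ccn4 was number 10 by ratio among the genes of that class with at least 100 UMIs in at least 1 library. It reached 100 UMIs only under the p53 knockout label, where it is high, so this rank lends no support to the difference. Pericyte-like cells held 0 and 11 UMIs, and 32.2 CPM (16.1 to 57.6) under the label p53 knockout was 8.16-fold the level of the floor of 3 UMIs (lower end of the exact interval 5.59). Cardiomyocyte-like cells held 11 and 13 UMIs, or 1.80 and 5.79 CPM, with a log2 ratio of 1.68 (0.41 to 2.99) that was 0.18 with cells thinned to 500 UMIs and 0.85 without the mitochondria-rich cluster. Endocardial-like cells held 3 and 43 UMIs, or 1.74 and 11.3 CPM (8.16 to 15.2), a ratio of 5.63 (2.08 to 32.7), but B-like cells labelled p53 knockout held 10.1 CPM (2.08 to 29.5) from 3 UMIs. Only for fibroblast-like cells did the Ccn4 level rest on more than 50 UMIs.

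Ccn3 (formerly Nov), which is known from vessel walls and opposes CCN2 in some cell systems, was the member with ratio intervals wholly above 1 in some classes and wholly below 1 in another. Vascular endothelial-like cells held 11.1 CPM (7.41 to 16.1) and 27.8 CPM (22.5 to 34.1), a ratio of 2.47 (1.62 to 3.96), and free RNA would give 2.95 CPM under the label p53 knockout. Endocardial-like cells held 11.6 CPM (7.07 to 17.9) from 20 UMIs and 3.15 CPM (1.63 to 5.50) from 12 UMIs, a ratio of 0.276 (0.121 to 0.584). Ccn3 was thus higher in vascular endothelial-like and lower in endocardial-like cells under the label p53 knockout, where the endocardial level is close to the 2.62 CPM of free RNA. Fibroblast-like cells held 18.3 CPM (14 to 23.4) and 13.7 CPM (10.4 to 17.7), with a ratio of 0.750 whose interval, 0.514 to 1.09, includes 1. Lymphatic endothelial-like cells held 42.0 CPM (20.1 to 77.2) and 22.5 CPM (12.6 to 37.1), a ratio of 0.527 (0.225 to 1.33). Smooth muscle-like cells held 0 and 43 UMIs. Their 136 CPM (98.2 to 183) under the label p53 knockout was 4.53-fold the level of the floor of 3 UMIs (lower end of the exact interval 3.53) and stood above the other classes compared there. Under that label these cells held 6657 CPM of fibroblast and 3270 CPM of pericyte markers beside 6528 CPM of smooth muscle markers. The part of such a mixture in their Ccn3 level was not tested. Ccn6, the last gene of the family and no member here, had 20 and 11 UMIs in all.

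Counted by class among genes with at least 20 UMIs there, 4 of 5 members were at least 2-fold higher in fibroblast-like cells, where 6.7% of genes were. The count was 4 of 5 in endocardial-like cells (6.7% of genes), with Ccn3 at least 2-fold lower (11.7% of genes), and 4 of 4 in cardiomyocyte-like cells (4.35%), where Ccn4 rests on few UMIs and is under 2-fold with thinned cells. It was 3 of 4 in vascular endothelial-like (5.94%) and in smooth muscle-like cells (13.7%). The smaller classes gave 2 of 3 in macrophage-like (7.54%), lymphatic endothelial-like (8.64%) and mesothelial-like cells (12.2%), 2 of 2 in pericyte-like (5.43%) and 1 of 1 in B-like cells (15%). As given above, several of these counts include levels read as background or not told from it. In smooth muscle-like cells Ccn3 and Ccn5 had 0 UMIs under the wild-type label. Ccn4 had 3 UMIs under that label in fibroblast-like and in endocardial-like cells. These genes, like several others counted, reached 20 UMIs only through the library where they are high, so their calls lend no support of their own.

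**Figure D3:**
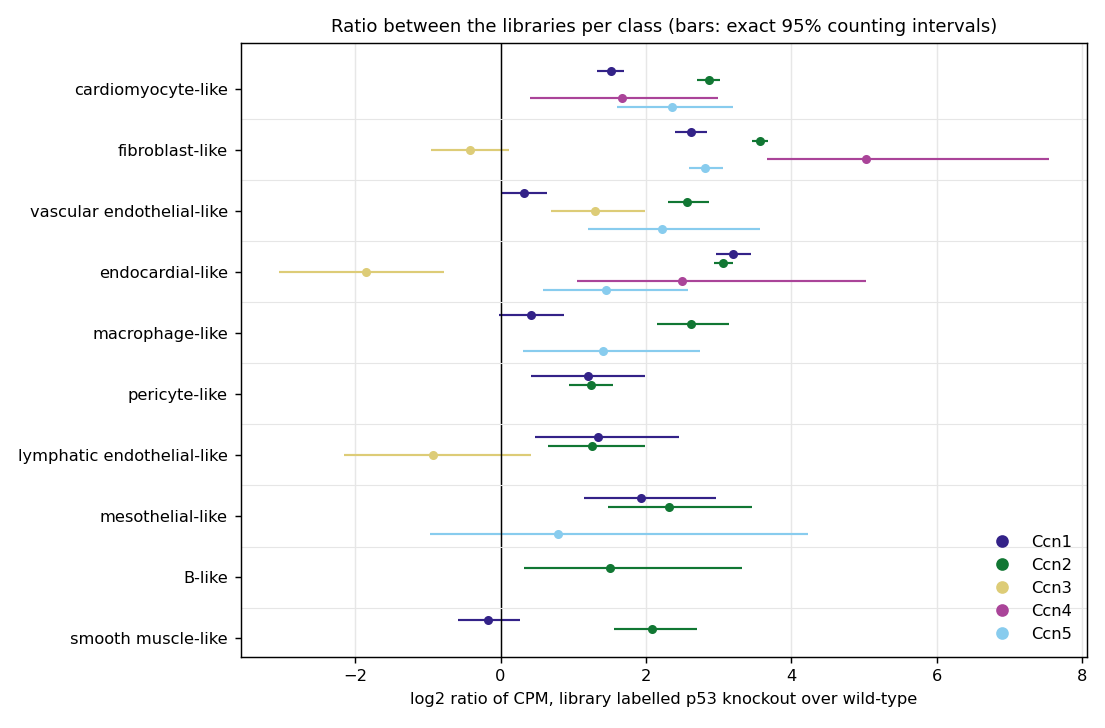
Log2 ratio of CPM, p53 knockout label over wild-type label, for each CCN gene with UMIs in both libraries and at least 20 in the class; bars are exact 95% counting intervals and the vertical line marks equal levels. Ccn2 lies right of the line in all 10 classes, and Ccn3 lies left of it at −1.86 in endocardial-like and right of it at 1.30 in vascular endothelial-like cells. Classes whose level was read as background or not told from it are drawn as well.

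The classes were not made of the same clusters in both libraries, so members were also compared within clusters, an alternative added after seeing the data. The CCN genes were left out of the genes used for clustering. Fibroblast-like cells labelled wild-type lay mostly in cluster 0, led by Abca6, Lvrn, Abca8a, Clec3b and Pcsk6 with 3024 and 162 cells, and those labelled p53 knockout in cluster 3, led by Cilp, Nox4, Postn, Adamtsl2 and Col8a1 with 139 and 1848 cells. Where nearly all cells of a cluster share a library, the cluster may stand for the library and not for a cell type. Ccn2 was at 163 CPM (149 to 177) and 887 CPM (764 to 1025) in cluster 0, and at 908 CPM (778 to 1054) and 2490 CPM (2441 to 2539) in cluster 3. Within either cluster Ccn2 was higher under the label p53 knockout, and within either library it was higher in cluster 3. Ccn1 differed little in cluster 0, at 52.8 CPM (45.2 to 61.3) and 71.9 CPM (40.3 to 119), and more in cluster 3, at 121 CPM (76.5 to 181) and 362 CPM (343 to 381). Ccn5 was at 47.6 and 120 CPM in cluster 0 and at 68.3 and 355 CPM in cluster 3. All 137 Ccn4 UMIs of fibroblast-like cells labelled p53 knockout fell in cluster 3.

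Endocardial-like cells showed the sharper split. Cluster 4, led by H19, Cytl1, Npr3, Ahsg and Chrm3, held 1602 and 327 cells, and cluster 7, led by Nrg1, Selp, Smoc1, Tuft1 and Edn1, held 11 and 1268. In cluster 4 Ccn2 was at 286 CPM (261 to 313) and 1185 CPM (1089 to 1287), but Ccn1 at 87.6 CPM (74.1 to 103) and 101 CPM (74.7 to 134). Thus the endocardial difference in Ccn1 was not seen within cluster 4, whereas that in Ccn2 was. Cluster 7 labelled p53 knockout held 931 CPM of Ccn1 and 2622 CPM of Ccn2. Its 11 cells labelled wild-type held 6 and 15 UMIs of these genes, or 412 and 1031 CPM. Ccn3 was at 11.7 and 8.45 CPM in cluster 4 and at 2.40 CPM in cluster 7 labelled p53 knockout. The fibroblast markers summed to 3117 and 3811 CPM in endocardial-like cells with none of 10 at 0, and a list of 6 blood genes to 571 and 2111 CPM, and their part in these levels was not tested.

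Among cardiomyocyte-like cells, Ccn2 was higher under the label p53 knockout in cluster 2 (Mhrt, Ttn, Myh6, Cacna1c, Hs3st5), at 71.2 and 328 CPM, and in the mitochondria-rich cluster 8 (Nppa, Myl4, Nppb, Mb, Actc1), at 84.0 and 725 CPM. Cluster 14 (Myh7, Ppm1e, Kctd16, Myocd, Dmd), which held 27 and 388 cells, had 485 CPM under the label p53 knockout. Among vascular endothelial-like cells, Ccn3 was at 7.02 and 16.3 CPM in cluster 1 (Dach1, Ccdc85a, Gabrb2, Slc28a2, Ablim3) and at 41.5 CPM (22.1 to 71.0) and 43.4 CPM (33.3 to 55.7) in cluster 10 (Igfbp5, Stc1, Wnt9b, Kcnc2, Inhba). Cluster 10 held 206 and 646 cells, so it was a larger part of the class in the library labelled p53 knockout, and its Ccn3 level was alike in both. Ccn2 in cluster 10 was at 95.9 and 402 CPM (370 to 436), above the 283 CPM estimated from free RNA for the class, and in cluster 11 (Btnl9, Igfbp3, Depp1, Rgcc, Sema7a) at 159 CPM, below it.

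**Figure D4:**
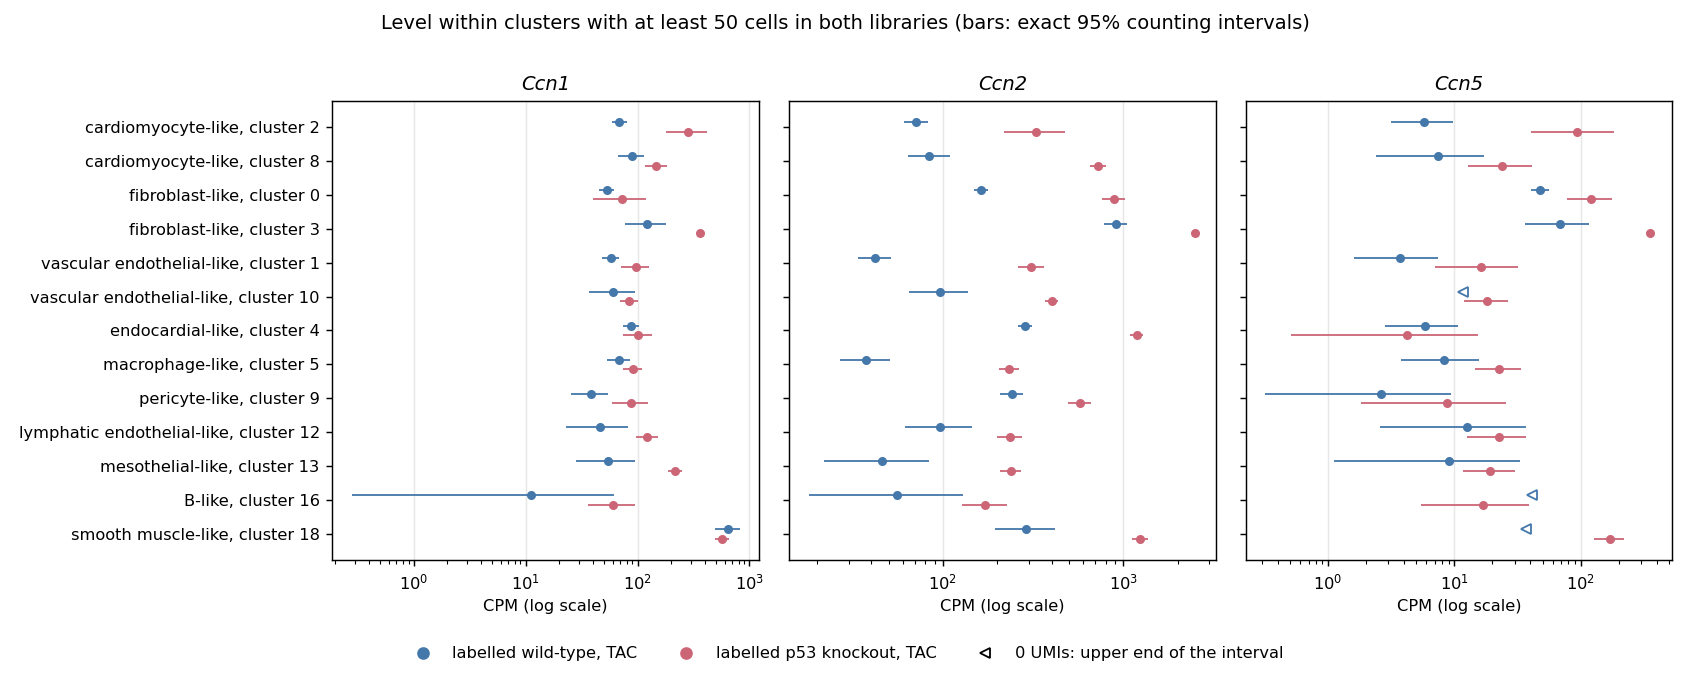
Level of Ccn1, Ccn2 and Ccn5 in CPM (log axis) within each cluster that had at least 50 cells in both libraries; points, bars and triangles are as in the plot of levels by class. Ccn2 is higher under the label p53 knockout in fibroblast-like clusters 0 and 3, whereas Ccn1 in endocardial-like cluster 4 is at 87.6 and 101 CPM.

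The libraries differed in depth, so Ccn2 was set side by side in cells of like depth, also added after seeing the data. In fibroblast-like cells with 500 to 1000 UMIs it was at 173 and 1863 CPM, with 1000 to 2000 UMIs at 208 and 1927 CPM, and with 2000 to 4000 UMIs at 249 and 2417 CPM. In endocardial-like cells the same bins gave 228 and 1375, 349 and 2046, and 281 and 2862 CPM. The difference between the libraries was thus present at every depth compared. Ccn1 of endocardial-like cells labelled p53 knockout was higher in deeper cells, from 409 CPM at 500 to 1000 UMIs to 1153 CPM at 4000 or more, while under the label wild-type it lay between 81.5 and 91.5 CPM. Ccn1 of vascular endothelial-like cells was at 68.0 and 125 CPM at 500 to 1000 UMIs and at 54.3 and 41.3 CPM at 2000 to 4000 UMIs, where the intervals of 26.0 to 99.9 and 31.0 to 54.1 overlap, and at 113 CPM (85.7 to 147) at 4000 or more under the p53 knockout label.

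**Figure D5:**
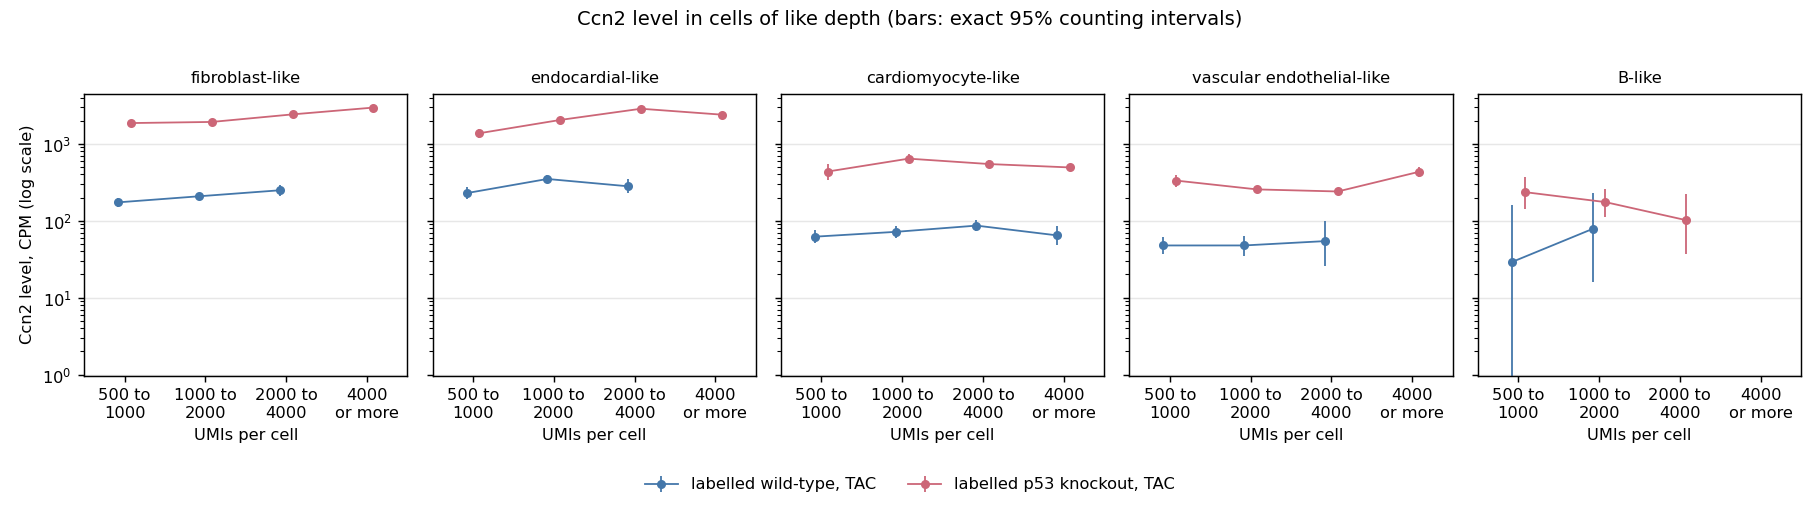
Ccn2 level in CPM (log axis) in cells grouped by their UMIs, per class and library, with exact 95% counting intervals (1 bar reaches below the axis); a point is drawn where the bin held enough cells. Fibroblast-like cells run from 1863 CPM upward under the label p53 knockout and from 173 to 249 CPM under the label wild-type.

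In the library labelled p53 knockout, some members were found more often in cells with a Ccn2 UMI than in cells without one. In fibroblast-like cells of that library thinned to 1000 UMIs, Ccn1 was found in 19.2% (16.7 to 21.9) of cells with a Ccn2 UMI. It was found in 11.9% (9.41 to 14.7) of cells without one. Ccn5 was found in 23.2% (20.5 to 26.0) of cells with Ccn2 and 13.4% (10.8 to 16.3) without. In endocardial-like cells of that library Ccn1 was found in 33.9% (30.7 to 37.3) with Ccn2 and 20.1% (16.7 to 23.8) without, but Ccn5 in 1.22% and 1.35%. Under the p53 knockout label Ccn1 was thus found more often with Ccn2 in both classes, and Ccn5 with Ccn2 in fibroblast-like cells. Cardiomyocyte-like cells gave 21.1% (15.5 to 27.5) and 11.5% (8.67 to 14.8) for Ccn1, and smooth muscle-like cells 32.6% (19.5 to 48.0) and 5.56% (1.53 to 13.6). In vascular endothelial-like cells the intervals of 7.91% and 5.16% overlapped. Fibroblast-like and endocardial-like cells each join clusters that differ in Ccn1 and Ccn2, and the part of that mix was not tested. Other pairs had overlapping intervals in fibroblast-like cells of that library. Ccn4 was found in 2.69% of cells with Ccn2 and 1.65% without, and Ccn5 in 23.6% (18.5 to 29.4) of cells with Ccn1 and 18.5% (16.4 to 20.7) without. Under the wild-type label Ccn1 was found in 7.49% (4.15 to 12.2) of fibroblast-like cells with Ccn2 and 3.20% (2.33 to 4.27) without, with intervals that overlap. Fibroblast-like cells with a UMI of Postn, a gene of matrix-producing fibroblasts, held 646 CPM of Ccn2 under the label wild-type and 3088 CPM under the label p53 knockout, and cells without one held 181 and 1542 CPM. Ccn5 did not follow Postn in that way, at 23.5 CPM (6.40 to 60.1) and 348 CPM with a Postn UMI and 50.1 CPM and 339 CPM without. Cells with a Postn UMI were deeper, with medians of 1246 and 2120 UMIs against 983 and 1410. All these shares are over cells of 1 library each, which are not replicates.

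Genes that act around the family were taken from lists and counted beside all genes of the class. The receptors of CCN proteins differed less than the members. Of 16 measured in fibroblast-like cells, 4 were at least 2-fold higher and 2 lower, with a median log2 ratio of 0.29, against −0.10 over all genes, of which 6.7% were at least 2-fold higher and 11.5% lower. Lrp1, the scavenger receptor that binds CCN2, was at 1156 and 1773 CPM, the fibronectin receptor subunit Itga5 at 192 and 435 CPM, and the proteoglycan Sdc4 at 17.4 and 55.2 CPM. Itgb1, the common β1 integrin chain, was at 350 and 403 CPM. In endocardial-like cells 6 of 15 receptors were at least 2-fold higher and 1 lower (median 0.68, against −0.11 over all genes, of which 6.7% were higher and 11.7% lower), among them Itgav, a CCN1-binding integrin chain, at 106 and 281 CPM.

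The Hippo kinases and their YAP, TAZ and TEAD effectors showed no gene of 23 at 2-fold in either direction in fibroblast-like or endocardial-like cells, with medians of 0.08 and 0.04. Tead1, a DNA-binding partner of YAP, was at 214 and 299 CPM in fibroblast-like and 261 and 416 CPM in endocardial-like cells. Of 23 other YAP and TEAD target genes, 8 were at least 2-fold higher and 1 lower in either class, with medians of 0.43 and 0.47. Among all genes of these classes, 6.7% were at least 2-fold higher in either, and 11.5% and 11.7% lower. Thbs1, a matricellular activator of TGF-β, was at 96.3 and 613 CPM in fibroblast-like cells, and Crim1, a transmembrane BMP regulator, at 594 and 1271 CPM in endocardial-like cells. The cardiomyocyte-like cells gave 4 of 22 higher and 1 lower, with a median of −0.20 against −0.25 over all genes, of which 4.35% were at least 2-fold higher and 15.7% lower. Ankrd1, a stress-induced sarcomere protein and YAP target, was at 306 and 3133 CPM there.

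TGF-β target genes and fibroblast matrix genes, 2 lists that overlap, were mostly higher in the classes counted. Over all genes, 6.7% were at least 2-fold higher in fibroblast-like and in endocardial-like cells, and 11.5% and 11.7% lower. Of 20 TGF-β targets, 17 were at least 2-fold higher and 1 lower in fibroblast-like cells (median 2.47), and 14 and 1 in endocardial-like cells (median 1.43). Of 18 matrix genes, 17 were higher and 1 lower in fibroblast-like cells (median 3.08). Postn was at 100 and 1426 CPM and Comp, a cartilage matrix protein, at 10.2 and 654 CPM, whereas Fap was lower at 352 and 160 CPM. TGF-β ligands, receptors and mediators differed less, with 4 of 20 higher and 0 lower in fibroblast-like cells, among them Ltbp2, of the family of latent TGF-β binding proteins, at 13.3 and 431 CPM. The MRTF and SRF list had 5 of 13 higher and 2 lower, and the Wnt list 4 of 11 higher and 1 lower, with Nkd2, a feedback inhibitor of Wnt signalling, at 10.7 and 103 CPM. Of 15 genes listed as p53 and its direct targets, 2 were at least 2-fold higher and 1 lower in fibroblast-like cells (median 0.22) and 1 higher and 0 lower in endocardial-like cells (median 0.12).

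Ccn1 is an immediate early gene, a class that also responds when tissue is taken apart, so others of that class were counted. Of 24 immediate early and dissociation stress genes, 7 were at least 2-fold higher and 1 lower in fibroblast-like cells (median 0.57), and of 23 in endocardial-like cells 6 were higher and 4 lower (median 0.01). The shares over all genes were 6.7% higher in either class, and 11.5% and 11.7% lower. Ier3 was at 25.2 and 185 CPM and Fosb at 8.41 and 4.08 CPM in fibroblast-like cells, while Egr3 was at 31.8 and 4.20 CPM in endocardial-like cells. The list thus leaned the way of Ccn1 in fibroblast-like cells and had no common direction in endocardial-like cells, and its part in the Ccn1 level was not tested.

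Genes whose level followed a member most closely over 22 points, each a class in a library, were found among 9496 genes by Pearson's r of log2(CPM + 20). The points share 2 libraries, so r is a description. For Ccn2 they included Cx3cl1 (0.81), Fn1 (0.81), Comp (0.79) and Sntg2 (0.79). For Ccn1 they included Tagln (0.82), Lox (0.80), Cx3cl1 (0.79) and Synpo (0.78). The chemokine Cx3cl1 was in both sets. For Ccn5 they were Pamr1 (0.93), Col12a1 (0.90), Mfap4 (0.90), Nox4 (0.89) and Col1a1 (0.85), a set with no gene in common with the others. With 5 CPM added in place of 20, Comp was no longer among the top 5 for Ccn2, nor Col1a1 for Ccn5. Between members r was 0.75 for Ccn1 and Ccn2, 0.66 for Ccn2 and Ccn5 and 0.44 for Ccn1 and Ccn5.

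Gm15270, a gene on the strand opposite Ccn2 that overlaps it, had 339 UMIs under the wild-type label and 174 under the p53 knockout label. Whether the counting used strand is not given, so reads of the pair cannot be told apart by these counts, although the 23106 Ccn2 UMIs far exceed those of its partner.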

How the data were processed

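Whole-number UMI counts per gene and barcode were deposited by the authors. Per the submitters' processing notes they used Cell Ranger, Seurat and the build mm10, with no versions. Whether cells or nuclei were loaded is not given in the labels. Symbols were positioned with GENCODE vM21 (32522 of 32589 identifiers matched). Barcodes with at least 200 genes and at most 50% mitochondrial UMIs were kept. Scrublet marked 0 barcodes, so the 8% with the highest scores (1283 and 808) were removed, which does not show that they were doublets. Clustering used scanpy 1.11.5 and leidenalg 0.10.2 (python 3.11.15, numpy 2.4.6, scipy 1.17.1, scikit-learn 1.9.0) on 2000 variable genes without the CCN genes, 30 principal components, 15 neighbours and resolution 1, with no integration of the libraries. A cluster was named from marker lists when at least 3 markers were at least 2-fold over the remaining cells. Clustering and naming were settled after seeing the data: 3 clusterings were tried, Cdh19 and Scn7a were left out of naming, and cluster 15 stayed unnamed though it met the neutrophil rule. Members and lists were chosen with earlier results of these data known.

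The CPM of nuclear-encoded UMIs were summed per class and library. Levels have exact Poisson, shares exact Clopper-Pearson and ratios conditional binomial 95% intervals, which cover counting error only. The code was checked on simulated counts. With 1 library per group there was no test. The text names the members, Trp53, genes of each list with the most UMIs or the most extreme ratio, the 5 genes most like a member (1 gene that the rule names is not reported here) and the 5 leading genes of a cluster. The free RNA share of a class is its share of cardiomyocyte marker UMIs over that of all kept cells of the library. The free RNA level is this share times the member's level over all kept cells, which counts every such UMI as free RNA. The alternatives were other filters, scalings, depths, clusterings and a subtraction of free RNA.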

Additional observations from a re-analysis of the deposited data

Results flagged for a closer look

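Ccn3 differed in opposite directions between the libraries in 2 classes, with counting intervals that lie on either side of equal levels. Its log2 ratio was −1.86 in endocardial-like cells and 1.30 in vascular endothelial-like cells, and the difference between the classes was not tested. The first value rests on 20 and 12 UMIs. In both classes the cells of the libraries lay mostly in different clusters, and within a cluster the log2 ratio was −0.33 (−2.48 to 1.11) in endocardial-like cluster 4, 1.26 (−0.23 to 2.55) in vascular endothelial-like cluster 1 and 0.02 (−0.81 to 1.05) in vascular endothelial-like cluster 10.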

How the results depend on the processing

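Each log2 ratio was recomputed under up to 11 other settings, which gave 357 values within the counting interval of the reported one, 26 outside it and 2 of opposite sign to a ratio whose interval left out equal levels. Ratios whose intervals included equal levels also changed sign. With free RNA subtracted, Ccn2 was at −1.18 in vascular endothelial-like and 2.90 in endocardial-like cells and Ccn1 at −1.76 in pericyte-like cells, and Ccn1 in macrophage-like cells turned from 0.42 to −3.66 and Ccn5 in mesothelial-like cells from 0.79 to −2.39. Ccn5 in mesothelial-like cells was also at −0.06 when cells needed 500 genes and at −0.03 when 3 UMIs were added, and Ccn1 in smooth muscle-like cells turned from −0.17 to 0.04 with median-of-ratios scaling. The subtraction leaves next to nothing where a level lies near the free RNA estimate. For Ccn2 in vascular endothelial-like cells (2.57 as reported) the value was 2.26 without doublet removal, 2.24 with at most 10% mitochondrial UMIs and 2.28 at clustering resolution 2. Thinned to 500 UMIs, Ccn2 was at 3.09 in cardiomyocyte-like and 3.40 in fibroblast-like cells and Ccn1 at 2.21 in fibroblast-like cells. Ccn2 in fibroblast-like cells was at 3.73 with at most 10% mitochondrial UMIs, and in cardiomyocyte-like cells at 2.70 without the mitochondria-rich cluster. The causes of these shifts were not tested. The range over settings was 3.40 to 3.73 for Ccn2 in fibroblast-like, 2.90 to 3.18 in endocardial-like and 2.70 to 3.09 in cardiomyocyte-like cells. No value left its interval without the shared barcodes, with 3 UMIs added, with CPM of all UMIs or with median-of-ratios scaling. That scaling subtracts −0.12 from the log2 ratios in endocardial-like, 0.23 in pericyte-like, −0.29 in mesothelial-like, 0.14 in B-like and −0.21 in smooth muscle-like cells, and less than 0.1 in size in the other classes. The TGF-β target median in cardiomyocyte-like cells was 1.74 with genes of at least 20 UMIs and 0.99 with at least 100. With 1 library per genotype, depth limits only the counting error. No paired analysis was possible because each group has 1 library.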

Other observations

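Adipocyte-like and Schwann-like cells were too few in at least 1 library for a ratio. The 30 and 59 adipocyte-like cells held 0 and 58 Ccn2 UMIs, the latter at 459 CPM (349 to 594). The 30 and 6 Schwann-like cells held 10 Ccn2 UMIs in each library. Cluster 15, left unnamed and led by Adam8, Cd300lf, Fgr, Csf3r and Lilr4b, held 8 and 388 cells, with 146 CPM of Ccn1 and 251 CPM of Ccn2 in the library labelled p53 knockout. Cluster 17, left unnamed and led by Chl1, Gpc5, Nrg3, Dpp10 and Lrp1b, held 2 and 317 cells, with 297 CPM of Ccn2 in that library.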
